A study of Caenorhabditis elegans with 2 samples.

Results

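The cells described here are those of the early *Caenorhabditis elegans* embryo that carried the most transcript of 12 genes of DNA replication and mitosis, called cycling cells below. They were 58 of the 219 Wild Type cells and 61 of the 686 cells of *spr-5; met-2* mutants. For each cell the unique molecular identifiers (UMIs, each of which counts 1 captured transcript) of *mcm-2* to *mcm-7*, *pcn-1*, *rnr-1*, *rnr-2*, *cyb-1*, *cyb-3* and *cdk-1* were divided by all UMIs of the cell, and this share was divided by its mean over the cells of both libraries to give a score. A cycling cell had a score of at least 2 and at least 4 UMIs from at least 3 of the 12 genes. The name rests on transcripts alone, since division itself was not measured in these cells.

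The study describes its embryos as enriched for, rather than limited to, a stage of 100-200 cells, so older or younger embryos may be among them. The embryos were dissociated with chitinase, their cells were captured in droplets, and transcripts were counted from their 3′ ends. Whether cycling and other cells came from embryos of different age was not tested. Wild Type is the strain N2. The mutants carry the alleles *spr-5(b101)* on chromosome I, also written *by101* by the study, and *met-2(n4256)* on chromosome III. They are F1 progeny of homozygous mothers. They are mutant for the H3K4 demethylase SPR-5 and the H3K9 methyltransferase MET-2. In both groups the mothers were starved as larvae and bleached as young adults, and cells are not tied to single embryos. There was 1 library per genotype, so genotype and library cannot be told apart, no p-value is given, and each interval below is a 95% interval that covers counting error only.

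A cell that divides first copies its DNA and then separates the copies. The MCM proteins form the helicase that is loaded at origins of replication, PCN-1 is the sliding clamp that holds the polymerase on DNA, and the RNR proteins make deoxynucleotides, while cyclin B and CDK-1 drive entry into mitosis. In the worm embryo cells divide in rapid rounds, and they leave the cycle as they become muscle, skin, neurons or gut.

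The libraries differed in depth. The kept cells had 758 to 66767 UMIs in Wild Type (median 2086) and 411 to 5941 in the mutants (median 726.5), and 18 Wild Type barcodes had more than 10000 UMIs, of which 2 were cycling cells and 16 were other cells. These 16 barcodes held 56.2% of the UMIs of the other Wild Type cells. The cell barcodes of the cycling cells were not shared between the libraries, although 11 barcodes occurred among the kept cells of both. UMIs of *spr-5* numbered 14 and those of *met-2* 22 in the Wild Type cycling cells (69 and 42 in the other cells), and 6 and 5 in the mutant cycling cells (34 and 15 in the other cells). Whether these 3′ tags lie outside the altered part of each gene was not checked, so they do not test the labels.

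Cycling cells made up 26.5% of the Wild Type cells (20.8 to 32.9%) and 8.89% of the mutant cells (6.87 to 11.3%). The score used a scale common to both libraries. The 12 genes took a mean of 0.516% of the UMIs of a Wild Type cell and 0.329% of those of a mutant cell, against 0.374% over all cells, so that the threshold stood at 0.748%. When each cell was instead divided by the mean of its own library, an alternative added after seeing the data, 26 Wild Type cells (11.9%, 7.90 to 16.9%) and 77 mutant cells (11.2%, 8.96 to 13.8%) met the rule. That scaling removes any difference between the library means by construction, so it does not show where the difference comes from. With every cell thinned to 500 UMIs, which left out 162 mutant cells, the shares were 26% (57 of 219 cells) and 11.5% (60 of 524 cells), and 44 and 41 of those cells had also been chosen before thinning.

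The score formed a continuous range with no gap at the threshold. The Wild Type cell just inside it had a score of 2.02 (36 of its 4765 UMIs) and the one just outside 1.996 (44 of 5891). The mutant cell just inside had 7 of its 934 UMIs in the 12 genes and the one just outside 9 of 1218, a score of 1.975. Between 1.9 and 2 lay 10 Wild Type and 13 mutant other cells, and 4 and 6 cycling cells lay under 2.1. At the top the range ended at 4.77 in Wild Type and at 9.08 in the mutants, where a single cell stood apart. At the bottom 16 Wild Type cells (7.31%) and 121 mutant cells (17.6%) had no UMI of the 12 genes.

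**Figure D1:**
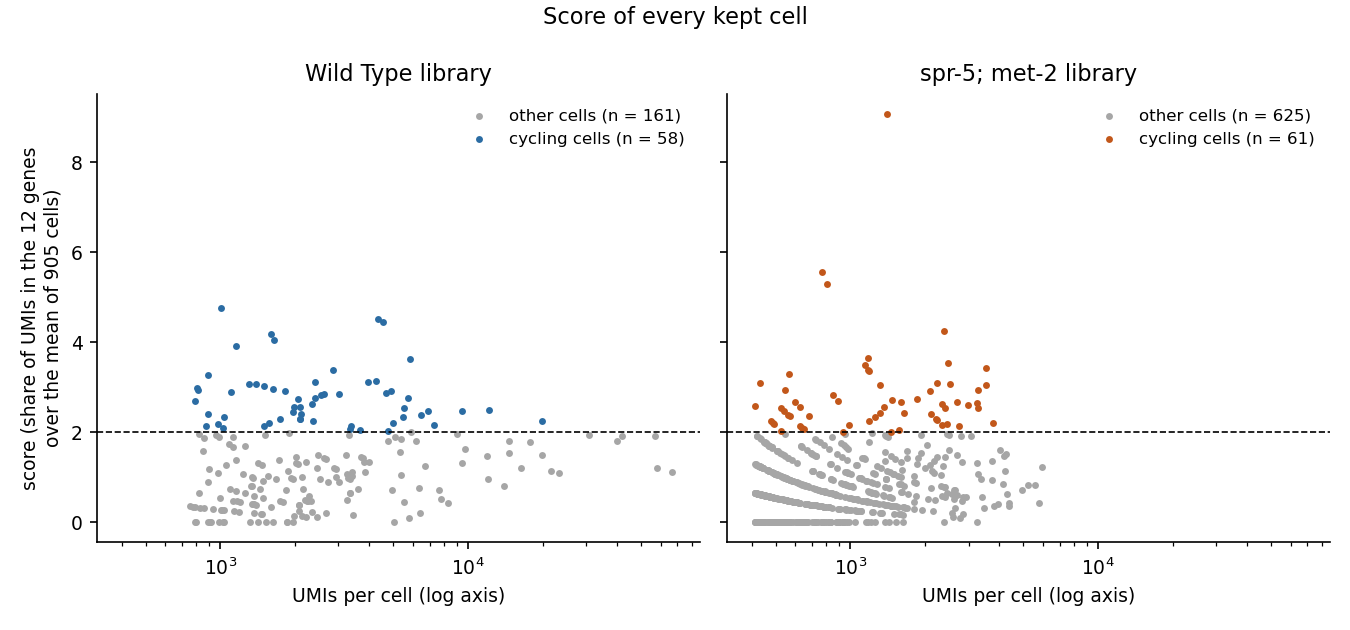
Each point is 1 kept cell, with its UMIs on a log axis and its score, which is the share of its UMIs in the 12 genes over the mean of all kept cells. Coloured points are the 58 Wild Type and 61 mutant cycling cells, grey points the 161 and 625 other cells, and the dashed line is the score of 2. The points cross the line without a gap, and the Wild Type barcodes above 10000 UMIs lie mostly below it.

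Mutant cycling cells were sampled more deeply than other mutant cells. UMIs per cycling cell ranged from 791 to 19916 in Wild Type (median 2229, against 2022 in other cells) and from 414 to 3750 in the mutants (median 1315, against 709). A median of 1146 and 793 genes was seen per cycling cell. The 12 genes gave 7 to 168 UMIs per Wild Type cycling cell (median 24) and 4 to 48 per mutant cycling cell (median 15), from a median of 9.5 and 7 of the genes. All 58 Wild Type cells held UMIs of both the replication and the mitosis genes, as did 54 of the 61 mutant cells, and the other 7 held none of *cyb-1*, *cyb-3* or *cdk-1*. The 3 mitosis genes gave a median of 26.3% and 25.8% of the UMIs of the 12 genes in a cycling cell, with a range from 5.56 to 62.5% in Wild Type and from 0 to 87.5% in the mutants.

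The levels of the 12 genes chose the cells and are therefore only described. Together they stood at 10049 CPM (UMIs of the genes scaled to a total of 1000000 UMIs) in Wild Type cycling cells and at 10583 in mutant cycling cells, against 4638 and 2761 in the other cells. *pcn-1* (chromosome IV, 4047937 to 4049448, ce11) stood at 1420 CPM in Wild Type cycling cells and 476 in the others, and at 1962 and 311 in the mutants. *mcm-7* (chromosome V, 4347166 to 4349768) stood at 1776 and 892 CPM, and at 1516 and 394 in the mutants. Among the mitosis genes *cyb-3*, a B-type cyclin, stood at 1601 and 760 CPM in Wild Type and at 1050 and 367 in the mutants, and *cdk-1*, the mitotic kinase, at 532 and 330 and at 1135 and 345. Barcodes with at most 200 UMIs, taken here as free RNA, held the 12 genes at 5421 CPM (Wild Type) and 4221 CPM (mutants), above the other cells of the same library. The level of these genes in the other cells therefore cannot be told from free RNA, and the other cells, which mostly held some UMI of them, are not shown to be outside the cycle.

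**Figure D2:**
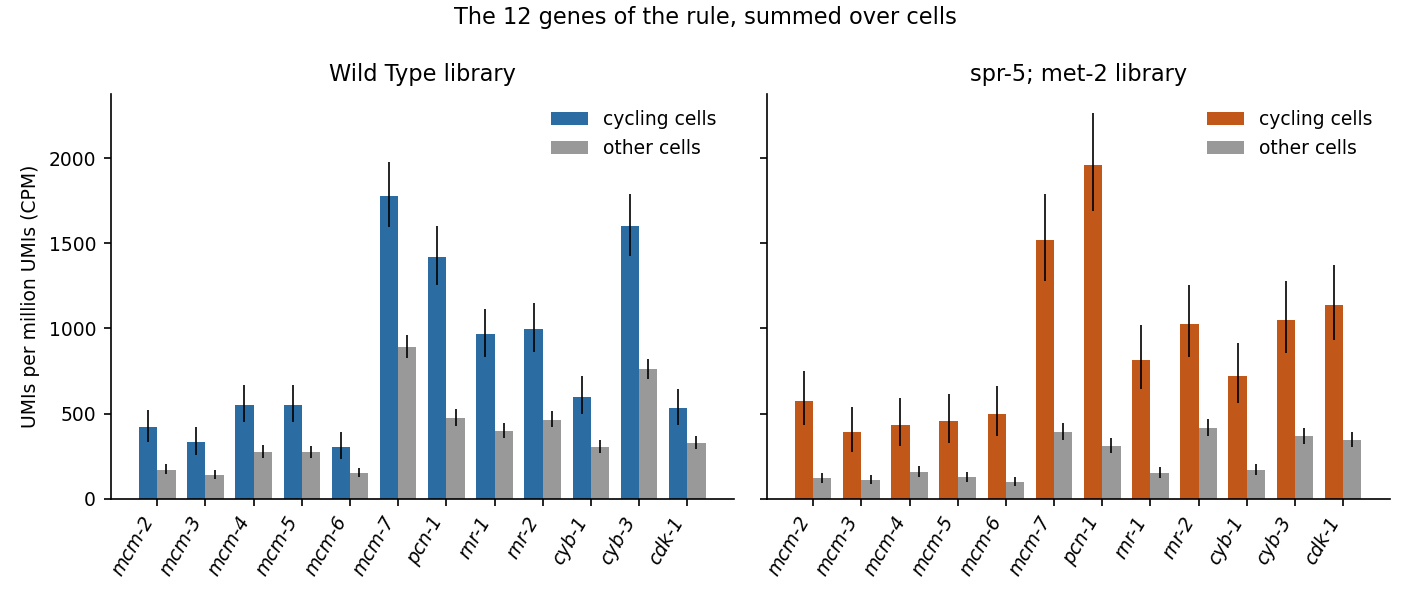
Bars give the summed UMIs of each of the 12 genes in CPM of all UMIs, in cycling cells (coloured) and other cells (grey) of each library, with lines for the 95% counting interval. Every gene stood higher in cycling cells, as the choice of the cells requires, with *pcn-1* at 1420 against 476 CPM in Wild Type and at 1962 against 311 CPM in the mutants.

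The replication and the mitosis genes of the rule were then read apart, so that the genes read had not chosen the cells (at least 3 UMIs of 2 replication genes, or 2 UMIs of mitosis genes, and a score of at least 2 on those genes). In the 61 Wild Type and 77 mutant cells chosen on the 9 replication genes, *cyb-1*, *cyb-3* and *cdk-1* together were 1.53 times as high as in the remaining cells in Wild Type (1.39 to 1.69) and 2.48 times in the mutants (2.13 to 2.89). Each of the 3 genes was higher in both libraries, from 1.35 times for *cdk-1* in Wild Type to 2.81 times for *cyb-1* in the mutants. In the 53 Wild Type and 83 mutant cells chosen on the 3 mitosis genes, the 9 replication genes were 1.70 times as high in Wild Type (1.57 to 1.83) and 2.26 times in the mutants (2.04 to 2.5). The ratio was highest for *pcn-1* in both libraries, at 2.47 (2.06 to 2.94) and 3.78 (3.06 to 4.66), and lowest for *rnr-1* in Wild Type, at 1.36, and for *rnr-2* in the mutants, at 1.62.

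For all other genes, levels were taken as CPM of the UMIs outside the 12 genes, and cycling cells were compared with the other cells of the same library. A gene was called higher or lower when this ratio, with 10 CPM added to both levels, was at least 1.5 or at most its inverse, among genes with at least 20 UMIs in the library. Of 5262 Wild Type genes 11.5% were called higher and 22.1% lower, and of 5515 mutant genes 19% and 32.2%. Among the 4751 genes measured in both libraries 306 (6.44%) were called higher in both and 630 (13.3%) lower in both. Over all genes the log2 ratio had a median of -0.06 in Wild Type and of -0.16 in the mutants. With every cell thinned to 500 UMIs only 993 genes reached the minimum in both libraries, of which 99 were called higher and 147 lower.

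Replication genes outside the rule were higher in cycling cells of both libraries. The lists of origin licensing and of the replication fork together stood at 6886 CPM in Wild Type cycling cells and 4369 in other cells, a ratio of 1.58 (1.48 to 1.68), and at 8102 and 3964 CPM in the mutants, a ratio of 2.04 (1.88 to 2.22). Without barcodes above 10000 UMIs the Wild Type ratio was 2.12, and with cells weighted equally it was 2.27. The 2 libraries are therefore not ranked by this ratio. Of 38 of these genes measured in both libraries 16 were called higher in both and none lower in both (6.44% and 13.3% of all genes). The median log2 ratios were 0.48 (Wild Type) and 0.88 (mutants). In barcodes with at most 200 UMIs the same genes stood at 5242 and 4920 CPM.

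Origin licensing and firing genes had a ratio of 1.53 in Wild Type (1.33 to 1.76) and 2.12 in the mutants (1.79 to 2.5). *cdt-1*, which loads the MCM helicase, stood at 376 against 170 CPM in Wild Type (2.2 times, 1.63 to 2.95) and at 557 against 212 CPM in the mutants (2.63 times, 1.87 to 3.64). *orc-1*, a subunit of the origin recognition complex, stood at 183 against 120 CPM and at 429 against 170 CPM. *cdc-6*, the partner of *cdt-1* in loading, had too few UMIs to be placed, with 8 in the cycling cells of Wild Type and 4 in those of the mutants and ratios of 0.811 (0.329 to 1.75) and 1.24 (0.310 to 3.65).

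Genes of the replication fork had a ratio of 1.59 in Wild Type (1.48 to 1.71) and 2.02 in the mutants (1.84 to 2.22). In Wild Type 12 of 24 were called higher (11.5% of all genes), and in the mutants 22 of 24 (19% of all genes). Over the alternatives run the Wild Type ratio of the list ranged from 1.40 to 2.33, so the libraries are not ranked here either. The primase subunits were among them, with *pri-1* at 209 against 105 CPM (1.98 times) and at 214 against 71 CPM (3.03 times), and *pri-2* at 2.52 and 1.81 times. *tyms-1*, the thymidylate synthase, was 2.45 times as high in Wild Type (1.60 to 3.71) and 2.73 times in the mutants (1.36 to 5.2), and *dut-1*, the dUTPase, 2.30 and 2.88 times. These genes, like the RNR genes of the rule, act in the supply of deoxynucleotides. *rpa-2*, a subunit of the protein that covers single-stranded DNA, stood at 777 against 434 CPM in Wild Type and at 686 against 373 CPM in the mutants. *rfc-1*, the large subunit of the clamp loader, was an exception in the mutants, at 96 against 135 CPM with an interval from 0.316 to 1.42, whereas *rfc-2* had ratios of 1.9 and 2.48.

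Genes that act in mitosis were higher as well, by less. The rule that chose the cells holds 9 replication and 3 mitosis genes, so this order is not independent of that choice. The kinetochore, spindle, passenger complex, condensin and anaphase promoting complex lists together stood at 25034 against 17747 CPM in Wild Type (1.41 times, 1.36 to 1.46) and at 30555 against 17890 CPM in the mutants (1.71 times, 1.64 to 1.78). Without barcodes above 10000 UMIs the Wild Type ratio was 1.71, and with cells weighted equally it was 1.78, so the libraries are not ranked by it. Of 82 genes measured in both libraries 21 were called higher in both and none lower in both (6.44% and 13.3% of all genes). The median log2 ratio was 0.44 and 0.76. These genes stood at 18547 and 18933 CPM in barcodes with at most 200 UMIs.

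The kinetochore and checkpoint genes had the highest ratio of the mitotic lists, at 1.49 times in Wild Type (1.40 to 1.59) and 2.07 times in the mutants (1.9 to 2.25). The condensin, cohesin and topoisomerase list was at 1.45 (1.37 to 1.54) and 1.74 times (1.62 to 1.88), so the intervals overlapped in Wild Type. Of 23 kinetochore and checkpoint genes 11 were called higher in both libraries (6.44% of all genes). *him-10*, a subunit of the NDC-80 complex that binds microtubules, stood at 271 against 114 CPM in Wild Type (2.38 times, 1.66 to 3.38) and at 354 against 108 CPM in the mutants (3.26 times, 2.09 to 5.0). *mis-12*, a scaffold of the outer kinetochore, was 1.74 and 4.23 times as high, *knl-1* 1.69 and 2.55 times, and *bub-1*, a checkpoint kinase, 1.70 and 1.45 times. *knl-2*, which loads the centromeric histone, stood at 835 against 770 CPM in Wild Type, with an interval that included 1 (0.906 to 1.29), and at 1383 against 799 CPM in the mutants.

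Among the spindle genes *bmk-1*, a kinesin-5 motor, stood at 720 against 327 CPM in Wild Type (2.2 times, 1.78 to 2.71) and at 729 against 310 CPM in the mutants (2.35 times, 1.76 to 3.11). *air-1*, the Aurora A kinase, was 2.13 and 3.13 times as high. *air-2*, the Aurora B kinase of the passenger complex, was 1.87 and 1.72 times as high, and its partner *icp-1* 1.69 and 1.74 times. *dhc-1*, the dynein heavy chain, went the other way, at 167 against 223 CPM (0.748 times, 0.497 to 1.09) and at 397 against 572 CPM (0.693 times, 0.480 to 0.973). Dynein also has roles outside mitosis.

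Genes that shape chromosomes and the nucleus followed the mitotic genes. *top-2*, topoisomerase II, which untangles sister chromatids, stood at 2071 against 1067 CPM in Wild Type (1.94 times, 1.72 to 2.19) and at 2551 against 995 CPM in the mutants (2.56 times, 2.2 to 2.98). *dpy-27*, the condensin subunit of X chromosome dosage compensation, stood at 407 against 340 CPM and at 418 against 484 CPM, and both intervals included 1. The nuclear envelope genes were at 1.36 (1.25 to 1.47) and 1.71 times (1.55 to 1.88), with *baf-1*, which binds chromatin as the envelope forms again, at 1.9 (1.57 to 2.3) and 2.93 times (2.21 to 3.85). The anaphase promoting complex had the smallest ratio of the mitotic lists in both libraries, at 1.22 (1.05 to 1.41) and 1.42 (1.17 to 1.72). None of its 7 genes measured in both was called higher in both. Over all genes this share was 6.44%, so the count does not set the complex apart.

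**Figure D3:**
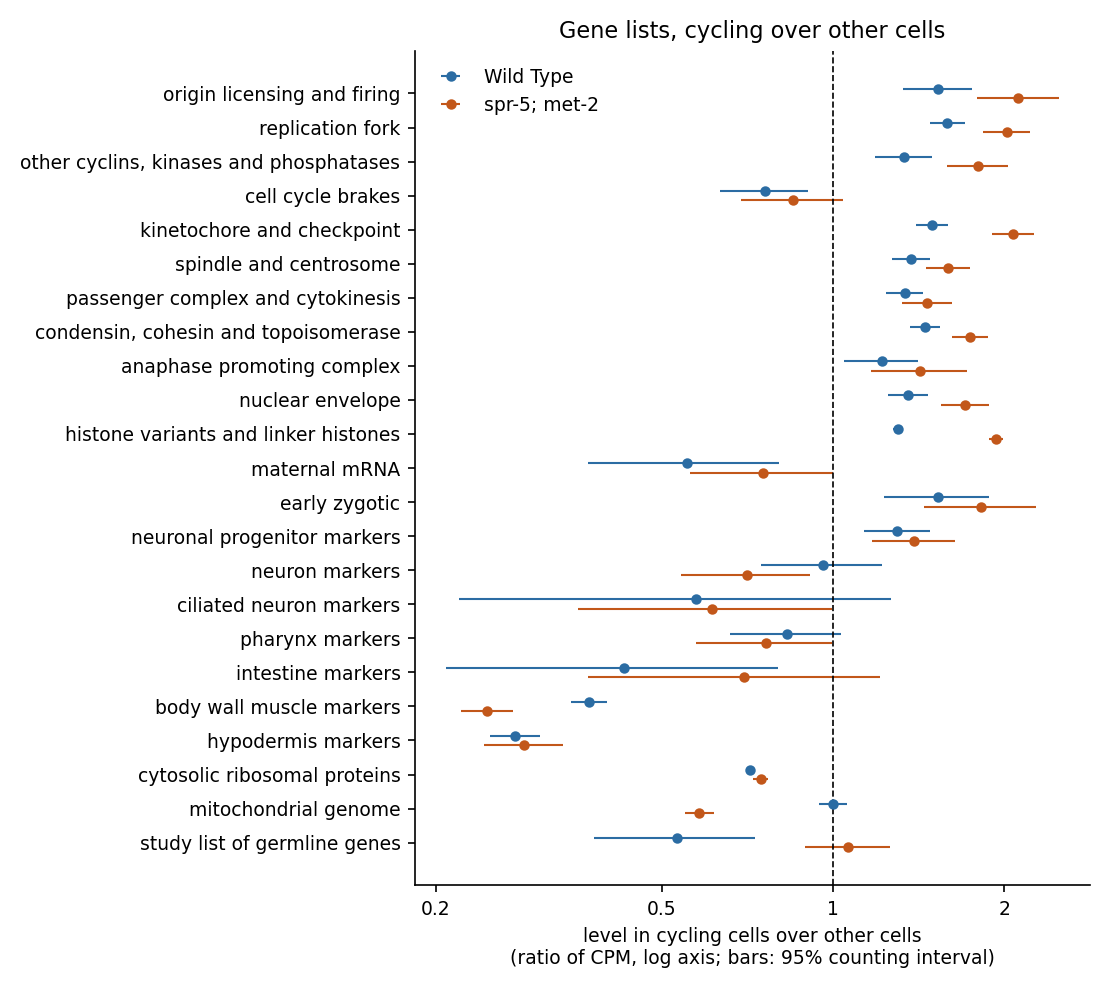
Points give the summed level of each gene list in cycling cells over that in other cells of the same library, on a log axis, with lines for the 95% counting interval. The replication and mitosis lists lie to the right of 1 in both libraries, and body wall muscle (0.372 and 0.247) and hypodermis markers (0.276 and 0.286) lie to the left of it.

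Among regulators of the cycle the drivers were higher in cycling cells, while the brakes were mixed. Cyclins, kinases and phosphatases outside the rule were 1.33 times as high in Wild Type (1.18 to 1.5) and 1.80 times in the mutants (1.59 to 2.03). *cks-1*, the small subunit that binds cyclin-dependent kinases, stood at 532 against 343 CPM in Wild Type and at 1190 against 472 CPM in the mutants, and *cyd-1*, the G1 cyclin D, was at 1.21 (0.743 to 1.9) and 2.73 times (1.66 to 4.36). The brakes as a list were at 0.759 (0.634 to 0.904) and 0.851 times (0.689 to 1.04), although the median log2 ratio of the 8 genes was 0.31 in the mutants, and the Wild Type sum was at 1.09 after thinning to 500 UMIs. *cki-1*, a CDK inhibitor that holds cells in G1, stood at 177 CPM in Wild Type cycling cells and 375 in other cells (0.473 times, 0.322 to 0.675), and at 129 and 519 CPM in the mutants (0.248 times, 0.127 to 0.439). All 8 brakes together stood at 782 against 1031 CPM in Wild Type and at 1147 against 1348 CPM in the mutants. The lower sums thus rest mostly on *cki-1*. Its relative *cki-2* had 1 UMI in the Wild Type and 2 UMIs in the mutant cycling cells, with ratios of 0.118 (0.00291 to 0.702) and 0.252 (0.0298 to 0.957). *lin-35*, the worm homolog of the retinoblastoma protein, was at 1.05 and 1.44 times with intervals that included 1, so the lower level was not shared by all brakes.

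Histone genes did not form 1 group. Their sum was at 1.3 times in Wild Type (1.28 to 1.33) and 1.93 times in the mutants (1.88 to 1.99), but the median log2 ratio of the 10 measured genes was -0.08 and 0.68, since the sum rests on a few abundant genes. *his-24*, a linker histone, stood at 29854 CPM in Wild Type cycling cells and 18627 in other cells (1.60 times, 1.55 to 1.65), and at 30769 and 12848 CPM in the mutants (2.39 times, 2.29 to 2.5). *hil-2*, another linker histone, was 1.25 and 1.96 times as high, *his-72*, an H3.3 variant, 1.55 and 2.08 times, and *htz-1*, the H2A.Z variant, 1.2 and 1.7 times. In contrast *hil-7*, also of the linker histone family, stood at 1487 against 3887 CPM in Wild Type (0.382 times, 0.338 to 0.432) and at 879 against 3217 CPM in the mutants (0.273 times, 0.216 to 0.341). Linker histones thus lay on both sides of 1 in each library.

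The levels of these lists followed the score below the threshold too. In Wild Type the replication fork genes stood at 709 CPM in the 16 cells with no UMI of the 12 genes, at 1866 CPM in the 77 cells with a score above 0 and under 1, at 4050 CPM in the 68 cells from 1 to 2 and at 5441 CPM in the 58 cycling cells. In the mutants the same series ran from 2124 CPM in 121 cells over 2564 in 332 cells and 4261 in 172 cells to 6077 in the 61 cycling cells. Body wall muscle markers ran the other way, from 29225 to 20752, 7938 and 4340 CPM in Wild Type and from 28166 to 17282, 6941 and 3858 CPM in the mutants. Depth moved with these bins, since the median UMIs per cell were 1175, 1796, 3225 and 2229 in Wild Type and 564, 788.5, 718 and 1315 in the mutants, and its part was not tested.

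**Figure D4:**
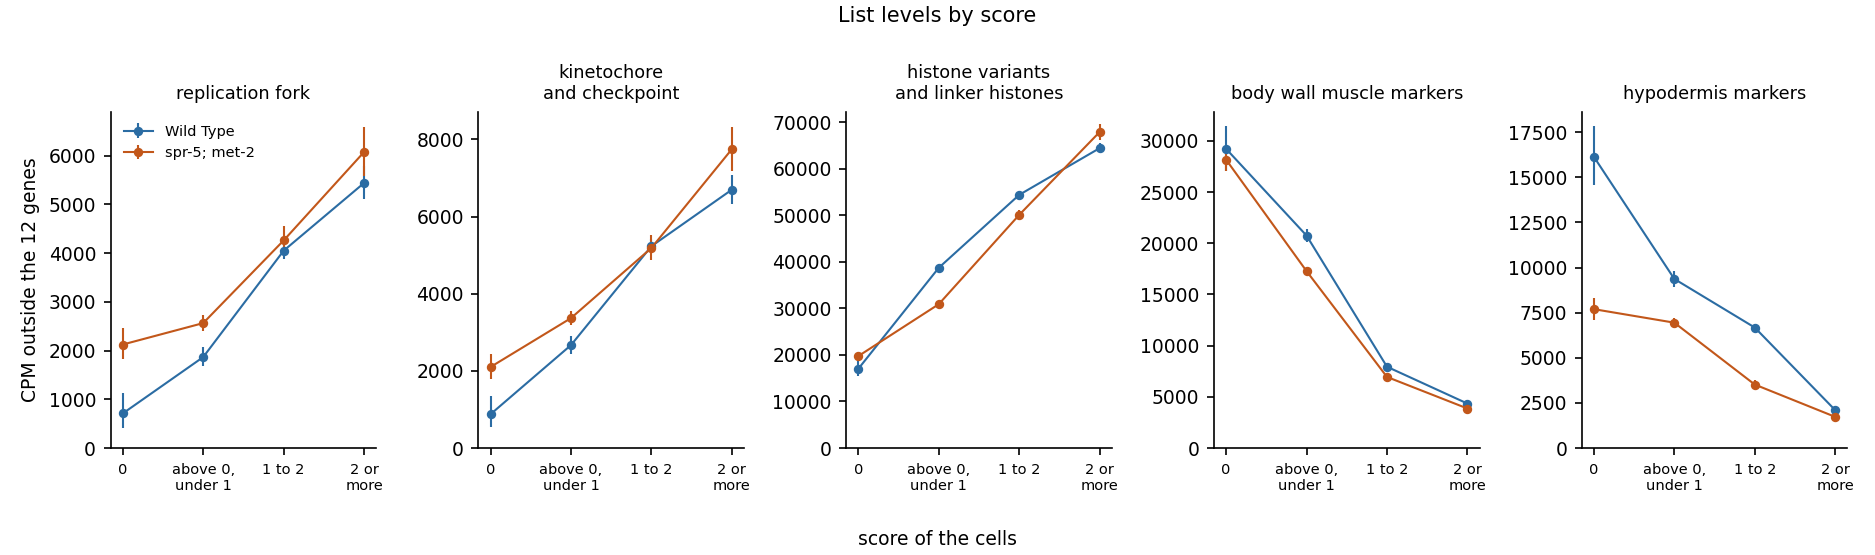
Each panel plots the summed level of a gene list (CPM of UMIs outside the 12 genes) in cells grouped by score, for both libraries, with lines for the 95% counting interval. Replication fork, kinetochore and histone genes stand higher in each bin than in the one before, and muscle and hypodermis markers lower, from 29225 to 4340 CPM for muscle in Wild Type.

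Markers of muscle and hypodermis were lower in cycling cells. Together they stood at 6437 CPM in Wild Type cycling cells and 19265 in other cells, a ratio of 0.334 (0.315 to 0.354), and at 5584 and 21680 CPM in the mutants, a ratio of 0.258 (0.236 to 0.281). Of 33 of these markers measured in both libraries 28 were called lower in both and none higher in both (13.3% and 6.44% of all genes). Without the other cells that met a muscle or hypodermis marker rule, an alternative added after seeing the data that left 113 and 444 of them, the ratios were 0.574 and 0.647. Barcodes with at most 200 UMIs held these markers at 11787 and 15554 CPM, above the cycling cells.

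*pat-10*, the troponin C of body wall muscle, stood at 1148 CPM in Wild Type cycling cells and 4093 in other cells (0.280 times, 0.243 to 0.321), and at 932 and 5920 CPM in the mutants (0.158 times, 0.126 to 0.195). *ttn-1*, a titin of the sarcomere, had 2 UMIs in the cycling cells of Wild Type against 214 in other cells, and 7 against 713 in the mutants. The UMIs of all genes outside the rule numbered 191701 against 815742 in Wild Type and 93307 against 635992 in the mutants. The transcription factors of muscle were not all as low. *hlh-1*, the MyoD homolog, was at 0.60 (0.398 to 0.876) and 0.207 times (0.0419 to 0.621), whereas *hnd-1*, which acts early in muscle precursors, stood at 683 against 356 CPM in Wild Type (1.92 times, 1.55 to 2.37) and at 364 against 255 CPM in the mutants (1.43 times, 0.958 to 2.08). Its UMIs came from 8 and 5 cycling cells. In the hypodermis the cuticle collagens *dpy-17* and *sqt-3* were at 0.243 and 0.203 times in Wild Type and at 0.276 and 0.227 times in the mutants. *elt-1*, the transcription factor that specifies hypodermis, was at 1.33 times in Wild Type (0.802 to 2.12) and at 0.296 times in the mutants (0.0597 to 0.903).

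No cycling cell of either library met the rule for body wall muscle. The rule needed at least 4 UMIs of at least 2 of its markers and 2 times their mean share over all cells. A single mutant cycling cell held 63 UMIs of the marker *unc-54* without meeting it. A count of 0, read as at most 3 cells of the total, allows a share of up to 5.17% of the 58 Wild Type cells and 4.92% of the 61 mutant cells. The Clopper-Pearson interval reaches 6.16% and 5.87%. The rule was met by 19.9% (32 of 161) and 14.7% (92 of 625) of other cells. The hypodermis rule was met by 1 and 2 cycling cells, against 16 and 93 other cells. Neuronal progenitor markers were met by 7 of 58 Wild Type (12.1%, 4.99 to 23.3%) and 9 of 61 mutant cycling cells (14.8%, 6.98 to 26.2%), against 6.83% and 6.56% of other cells. Most cycling cells, 47 of 58 and 46 of 61, met the rule of none of the 10 tissues, against 92 of 161 and 349 of 625 other cells.

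Neuronal progenitor genes were the tissue markers that were higher in cycling cells of both libraries, at 1.3 times (1.13 to 1.48) and 1.39 times (1.17 to 1.64), although with a score of at least 1.5 the Wild Type ratio was 0.991. The members were divided. In Wild Type 2 of 8 were called higher and 1 lower (11.5% and 22.1% of all genes). In the mutants 2 of 7 were called higher and 1 lower (19% and 32.2% of all genes). Of 7 measured in both libraries 1 was called higher in both (6.44% of all genes). In cycling cells the list stood at 1513 CPM in Wild Type (1344 to 1697) and 1822 CPM in the mutants, and in other cells at 1167 and 1311 CPM. Barcodes with at most 200 UMIs held it at 1460 and 1196 CPM, so the Wild Type level in cycling cells cannot be told from free RNA. *hlh-14*, a proneural transcription factor of the Achaete-Scute family, stood at 496 against 268 CPM in Wild Type (1.85 times, 1.44 to 2.36) and at 750 against 374 CPM in the mutants (2.0 times, 1.51 to 2.63). Most of the difference in the list sums lay in this gene. *unc-86*, a POU homeobox gene of neuronal lineages, was at 0.293 times in Wild Type (0.0774 to 0.793), and *sox-2* at 0.558 times in the mutants (0.248 to 1.10). Markers of neurons as such were at 0.960 (0.747 to 1.22) and 0.706 times (0.540 to 0.911), and pharynx markers at 0.829 (0.660 to 1.03) and 0.762 times (0.573 to 0.996). Intestine markers were at 0.429 times in Wild Type (0.208 to 0.799), or 1.43 after thinning, which left 2 UMIs, and at 0.697 times in the mutants (0.371 to 1.21). Germline markers were at 0.151 (0.0403 to 0.396) and 0.512 times (0.267 to 0.899), or 1.13 in the mutants after thinning. *nos-2*, a marker of the primordial germ cells, had no UMI in Wild Type cycling cells and 57 UMIs (69.9 CPM) in the others. That is at least 4.47-fold lower against a floor of 3 UMIs, which counts UMIs and not cells. The germline rule was met by 0 of 58 Wild Type cycling cells (up to 6.16%) and 4 of 161 others (2.48%), too few to tell the 2 shares apart.

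Maternal and early zygotic transcripts lay on different sides of 1. Early zygotic genes were at 1.53 times in Wild Type (1.23 to 1.88) and 1.82 times in the mutants (1.44 to 2.27), but the Wild Type ratio was 0.796 after thinning. The members of this list were split, with 3 of 7 called higher and 2 lower in Wild Type (11.5% and 22.1% of all genes). In the mutants 4 of 8 were called higher and 4 lower (19% and 32.2% of all genes). *sdz-28* held many of these UMIs, with 32 UMIs in Wild Type cycling cells and 27 in the others (5.04 times, 2.93 to 8.75), and 31 and 25 in the mutants (8.45 times, 4.83 to 14.9). It was named as a zygotic gene that depends on the maternal factor SKN-1. *sdz-1*, named in the same way, had no UMI in mutant cycling cells and 96 UMIs in other mutant cells, at least 4.69-fold lower against a floor of 3 UMIs. All 20 UMIs of *ceh-51*, a homeobox gene of the MS lineage, in mutant cycling cells came from a single cell. Maternal mRNAs were at 0.554 times in Wild Type (0.370 to 0.802) and 0.754 times in the mutants (0.560 to 0.998), and the mutant ratio was 1.27 with a score of at least 3 and 1.35 after thinning.

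Ribosomal protein genes stood at 77835 CPM in Wild Type cycling cells and 109015 in other cells (0.714 times, 0.702 to 0.726), and at 52129 and 69921 CPM in the mutants (0.746 times, 0.724 to 0.768). Of 78 such genes measured in both libraries 18 were called lower in both and none higher in both (13.3% and 6.44% of all genes). Transcripts of the mitochondrial genome were at 1.0 times in Wild Type (0.943 to 1.06) and at 0.582 times in the mutants (0.549 to 0.616). Per cell they made up a median of 0.691% of UMIs in Wild Type cycling cells and 0.756% in other cells, and 1.21% and 2.07% in the mutants. Depth differed between mutant cycling and other cells in the same comparison, and its part was not tested. Barcodes with at most 200 UMIs held ribosomal protein genes at 133890 CPM (Wild Type) and 102541 CPM (mutants), and mitochondrial transcripts at 10660 and 29765 CPM, above both cycling and other cells of the same library. The part of free RNA in these ratios was not tested. Heat shock genes were at 1.07 (0.991 to 1.15) and 0.837 times (0.745 to 0.938).

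Genes outside the lists were ranked by the smaller of their ratios in both libraries, and the 10 highest are described first. *skr-7*, which encodes a Skp1-related subunit of SCF ubiquitin ligases (chromosome V, 4422427 to 4423011), stood at 1012 CPM in Wild Type cycling cells and 168 in other cells (6.03 times, 4.82 to 7.55), and at 1554 and 190 CPM in the mutants (8.17 times, 6.37 to 10.5). Its UMIs came from 35 of 58 and 27 of 61 cycling cells. *skr-14*, of the same family (chromosome V, 4421069 to 4421575), was 6.16 (4.0 to 9.57) and 6.51 times (4.19 to 10.1) as high, and *skr-9* 11.6 (4.65 to 32.5) and 5.54 times (3.17 to 9.59), or 3.54 times in the mutants without its top cell. The *skr* genes include close copies that may share reads. *fbxb-91*, an F-box gene, was 6.48 and 8.14 times as high. *btb-8*, a gene with a BTB domain, had 22 UMIs against 2 in Wild Type (46.8 times, 11.5 to 411). In the mutants it had 16 UMIs against 16 in the more numerous other cells (6.82 times, 3.19 to 14.6).

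*dsl-2*, which encodes a ligand-like protein of the Delta family, stood at 318 against 35.6 CPM in Wild Type (8.95 times, 5.66 to 14.4) and at 557 against 99.1 CPM in the mutants (5.63 times, 3.82 to 8.25). A single cell held 31 of its 61 UMIs in Wild Type cycling cells, and the ratio without that cell was 4.52. *sepa-1*, a receptor that brings P granule proteins to autophagy in somatic cells, was 8.26 (4.47 to 15.8) and 8.03 times (4.71 to 13.8) as high. *sdz-9* was 20.2 (6.72 to 81.7) and 9.2 times (4.97 to 17.3) as high, and without the cell that held 10 of its UMIs in each library it was 9.87 and 6.02 times. *F39F10.4* was 5.51 and 5.24 times as high, in 25 cycling cells of each library. *Y25C1A.6* rested on few cells, with UMIs in 6 Wild Type and 3 mutant cycling cells, 14 of 17 in the mutants from a single cell, and without the top cell the ratios were 4.05 and 5.31.

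The 10 genes at the low end of the same ranking are described next. *emb-9*, a type IV collagen of basement membranes (chromosome III, 9336881 to 9344447), stood at 99.1 CPM in Wild Type cycling cells and 661 in other cells (0.150 times, 0.0896 to 0.237), and at 161 and 1352 CPM in the mutants (0.119 times, 0.0662 to 0.197). In Wild Type 14 of its 19 UMIs came from a single cycling cell, and without it the ratio was 0.0440. *icl-1*, the enzyme of the glyoxylate cycle, was at 0.148 and 0.112 times, or 0.0932 in Wild Type without its top cell. *ftn-2*, a ferritin, had 3 UMIs in Wild Type cycling cells against 356 in the others (0.0359 times). In the mutants it had 9 against 507 (0.121 times). *hch-1*, a metalloprotease required for hatching, had 6 against 411 UMIs (0.0621 times) and 1 against 121 (0.0563 times). *cpz-1*, a cathepsin Z protease, had 1 against 137 (0.0311 times) and 3 against 285 (0.0717 times). *C14F11.6*, *F21C10.7*, *fkb-4*, *osg-1* and *gei-15* completed the 10 lowest, with 1 to 12 UMIs in Wild Type and 0 to 5 in mutant cycling cells.

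The cycling cells of the 2 genotypes were then set against each other. Of 2649 genes with at least 20 UMIs in the cycling cells, 629 (23.7%) were called higher in the mutants and 500 (18.9%) lower, and the median log2 ratio was 0.08. The 12 genes of the rule were at 1.05 times (0.975 to 1.14) the Wild Type level, under a threshold common to both libraries, and at 0.594 times in the other cells. Replication genes were at 1.18 times (1.07 to 1.29), but at 0.985 times with scores scaled within each library. Mitosis genes were at 1.22 times (1.16 to 1.28), with a range of 1.06 to 1.40 over the alternatives run. Histone genes, at 1.05 times (1.02 to 1.09), ranged from 0.767 to 1.08 over the alternatives run.

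Cyclins, kinases and phosphatases outside the rule were at 1.79 times the Wild Type level in mutant cycling cells (1.54 to 2.08) and at 1.33 times in other cells. In cycling cells 4 of 7 were called higher and none lower (23.7% and 18.9% of all genes). *cks-1* was 2.24 times as high in the mutants (1.69 to 2.95), and *cyd-1* 2.14 times (1.19 to 3.86). *orc-1* was 2.35 times (1.45 to 3.81) and *spd-5*, a scaffold of the centrosome, 2.35 times (1.57 to 3.54) as high. *hil-4*, a linker histone, stood at 1061 against 407 CPM (2.61 times, 1.92 to 3.55), and *hil-3* at 1833 against 3208 CPM (0.571 times, 0.479 to 0.678). *bub-1* was at 0.625 times (0.422 to 0.904).

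Ribosomal protein genes were at 0.670 times the Wild Type level in mutant cycling cells (0.648 to 0.692) and at 0.641 times in other cells, and mitochondrial transcripts were at 1.80 (1.67 to 1.94) and 3.09 times, so both differed between the libraries outside the cycling cells as well. Of 78 ribosomal protein genes 41 were called lower and 1 higher (18.9% and 23.7% of all genes). The lowest was *rpl-38*, which stood at 1002 CPM in Wild Type and 118 CPM in mutant cycling cells (0.118 times, 0.0578 to 0.215). *F20D12.12* had 40 against 2 UMIs (0.103 times) and *T07A9.15* 27 against 1 (0.0761 times). *W04C9.2* and *lect-2* had no UMI in mutant cycling cells, against 28 and 20 UMIs in Wild Type, which places them at least 4.54-fold and 3.24-fold lower against a floor of 3 UMIs.

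UMIs of the 25 germline genes that the study lists as higher in the mutant soma stood at 230 CPM in Wild Type and 1693 CPM in mutant cycling cells (7.38 times, 5.25 to 10.6), and were 3.69 times as high in other cells. In barcodes with at most 200 UMIs they stood at 468 CPM in the Wild Type library and 1466 CPM in the mutant library, so their level in cycling cells cannot be told from free RNA. This list was chosen by the study on these libraries, so its direction is not independent evidence. *glh-2*, a Vasa-like helicase of P granules, had 1 UMI in Wild Type and 22 UMIs in mutant cycling cells, of which no cell held more than 3. Outside that list *set-9*, a SET domain gene, had 2 and 26 UMIs, and *Y54G9A.5* had 3 and 27. In cycling over other mutant cells *glh-2* was at 2.68 (1.56 to 4.46), *set-9* at 1.69 (1.05 to 2.61) and *Y54G9A.5* at 1.96 times (1.23 to 3.03). These genes were picked for their mutant ratio in cycling cells. Whether such scattered UMIs are expression in those cells or free RNA was not tested, so they are not read here as either. Within the mutants the list was at 1.06 times (0.892 to 1.26) in cycling over other cells, and within Wild Type at 0.532 times (0.380 to 0.729).

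Other genes with a large mutant ratio depended on single cells. *unc-54*, the main myosin heavy chain of body wall muscle, had 2 UMIs in Wild Type and 69 in mutant cycling cells, but 63 of the 69 came from a single cell, and without that cell its mutant level was 65.9 CPM. *clec-87*, a gene with a C-type lectin domain, had 6 and 40 UMIs, 22 of them from a single mutant cell, and was 13.7 times as high (5.77 to 39.5) with that cell and 9.25 times without the top cell of each library.

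**Figure D5:**
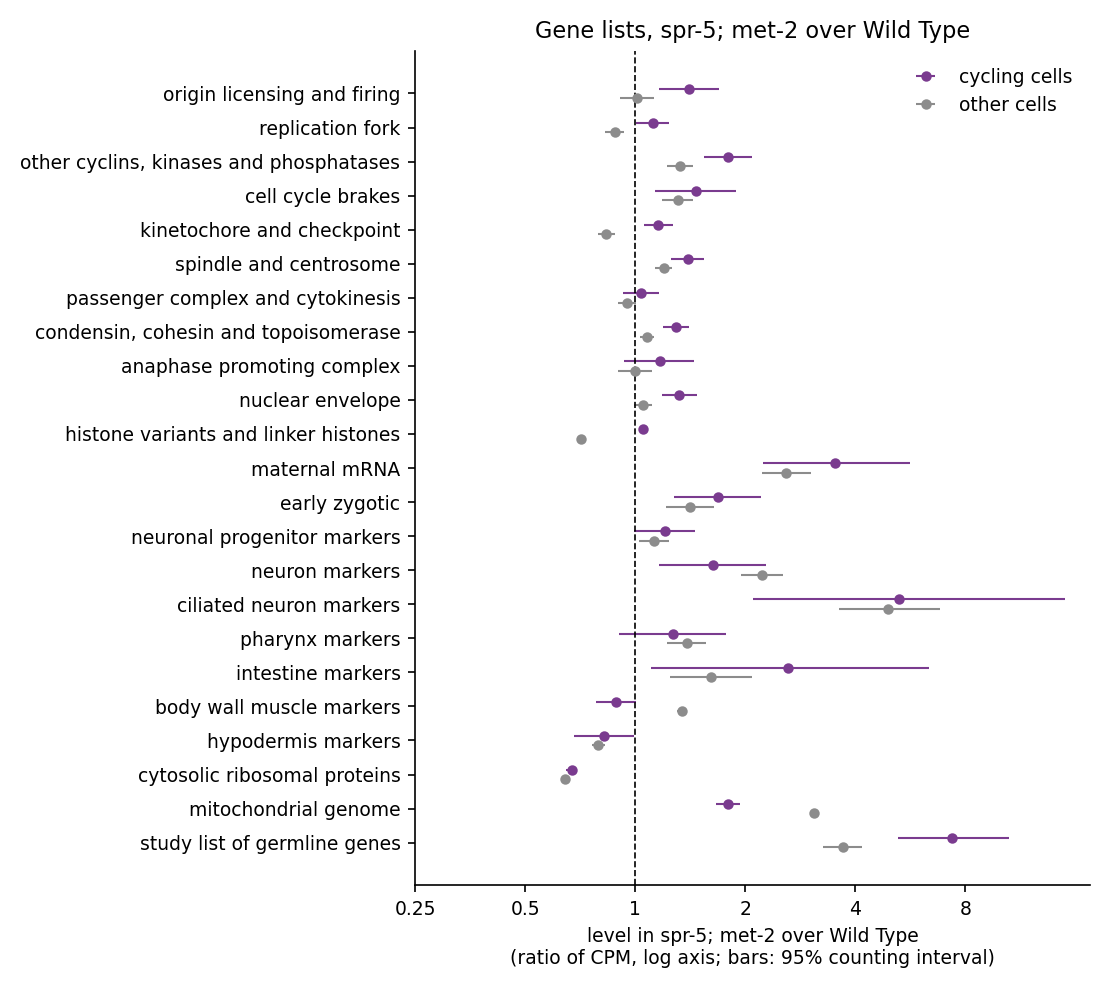
Points give the summed level of each gene list in *spr-5; met-2* over Wild Type, on a log axis, in cycling cells (purple) and other cells (grey), with lines for the 95% counting interval. In cycling cells ribosomal protein genes lie at 0.670 and the germline genes listed by the study at 7.38, while the replication fork list lies at 1.12.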

How the data were processed

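The deposited matrices hold raw UMI counts, whole numbers made by the authors using Cell Ranger 3.0.2 (listed with the ce11 build and Seurat in the submitters' processing notes), empty droplets included. The 219 and 686 barcodes of highest UMI total, the numbers in the labels, were kept as cells. Sums of UMIs over cells were expressed as CPM without the 12 rule genes in the total. CPM have Poisson intervals, ratios exact conditional binomial intervals and shares Clopper-Pearson intervals, at 95%. As the members and gene lists were chosen with earlier results of these data known, none is independent of them. Doublets called by Scrublet (11 Wild Type cells and 2 mutant cells, expected rate 4%) were kept. Outside the lists, genes named were the 10 highest and 10 lowest by the smaller ratio of both libraries, with 10 CPM added, and the 5 highest and 5 lowest between genotypes. Of 20191 genes 20105 matched the Ensembl release 115 annotation (WBcel235, the assembly of ce11). Python 3.11.15, scipy 1.17.1 and Scanpy 1.11.5 were used, and the ratio steps were tested on simulated data. Alternatives changed the score, cells, thinning, weighting, scaling, gene minimum and pseudocount.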

Additional observations from a re-analysis of the deposited data

Results flagged for a closer look

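With 1 library per genotype no group was large enough to be searched for outlying samples. In 5 cases a ratio of cycling over other cells lay above 1 in a library and below 1 in the other, with both counting intervals past 1, and the difference was not tested. Markers of other mesoderm were at 1.54 times in Wild Type and 0.312 times in the mutants. In Wild Type cycling cells 43 of their 46 UMIs were of *mls-2*, a homeobox gene that acts in the postembryonic mesoderm. *mls-2* was at 1.97 times there, and at 1.61 times without its top cell. The Wild Type sum thus rests on 1 gene and is not read as a result about mesoderm. The median log2 ratio of the markers was -0.14 in Wild Type, against the sum. The linker histone *hil-4* was at 0.726 times in Wild Type and 3.37 times in the mutants, and at 0.586 and 2.55 times without the cell of each library that held most of its UMIs. The mitochondrial gene *nduo-4* was at 1.28 and 0.554 times. *unc-54* was at 0.0583 times in Wild Type and 2.04 times in the mutants, but at 0.182 times in the mutants without the cell that held 63 of its 69 UMIs. *clec-87* was at 0.216 and 4.07 times, and at 1.85 times in the mutants without the cell that held 22 of its 40 UMIs.

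Barcodes with at most 200 UMIs, which enter no ratio, held the 12 rule genes at 5421 CPM in Wild Type and 4221 CPM in the mutants. The other cells of the same libraries held these genes at 4638 and 2761 CPM.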

How the results depend on the processing

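Over all results 844 values under the alternatives moved little, 266 moved and 27 turned, which means that a ratio whose counting interval excluded 1 lay on the other side of 1. Over 12 alternatives the replication lists stayed above 1 in cycling over other cells (1.38 to 2.27 in Wild Type, 1.75 to 2.09 in mutants), as did the mitosis lists (1.24 to 1.78 and 1.5 to 1.79), and muscle and hypodermis markers together stayed below it (0.114 to 0.574 and 0.173 to 0.647). The cause of each shift below was not tested unless the setting itself removes cells or genes. No paired analysis was possible because each genotype has 1 library.

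In this paragraph ratios of cycling over other cells are given for replication, mitosis, and muscle with hypodermis, in that order. A score of at least 1.5 took in 39.3% of Wild Type and 14.1% of mutant cells, with 1.79, 1.55 and 0.447 in Wild Type, 0.283 for muscle with hypodermis in the mutants, and 415 genes lower in both libraries. A score of at least 3 took in 6.85% and 2.33%, with 1.69, 1.28 and 0.114 in Wild Type, 1.79 for mitosis and 0.173 for muscle with hypodermis in the mutants, and 1036 genes lower. Without barcodes above 10000 UMIs the Wild Type ratios were 2.12, 1.71 and 0.253, and without called doublets muscle with hypodermis was at 0.300 and 0.222. Thinned to 500 UMIs, 11.5% of mutant cells were cycling, the ratios were 1.88, 1.72 and 0.227 in Wild Type and 1.76, 1.51 and 0.364 in the mutants, and 99 genes were higher and 147 lower. With cells weighted equally Wild Type gave 2.27, 1.78 and 0.194, and within bins of UMIs 1.70 and 1.5 for replication and mitosis. Genes higher and lower in both libraries numbered 473 and 1175 with no minimum of UMIs, 190 and 334 with at least 50 UMIs, and 177 and 319 with a pseudocount of 50 CPM. With the score divided by the mean of the own library 11.9% of Wild Type cells were cycling, with 1.72, 1.34 and 0.164. Against other cells without those meeting the muscle or hypodermis rule the ratios were 1.38, 1.24 and 0.574 in Wild Type and 1.75, 1.5 and 0.647 in the mutants. These last alternatives were added after seeing the data.

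Ratios whose counting interval excluded 1 and that lay on the other side of 1 were these, and crossings of ratios whose interval held 1 are not listed. For cycling over other cells, neuronal progenitor markers were at 0.991 in Wild Type with a score of at least 1.5, and maternal mRNA in the mutants at 1.27 with a score of at least 3. After thinning, Wild Type brakes were at 1.09, early zygotic genes at 0.796 and intestine markers at 1.43, and in the mutants maternal mRNA was at 1.35 and germline markers at 1.13. With equal weights ciliated neuron markers in the mutants were at 1.09. For mutant over Wild Type cycling cells, histones were at 0.981 with a score of at least 3, 0.996 without barcodes above 10000 UMIs, 0.767 after thinning, 0.836 with equal weights, 0.992 with median of ratios scaling and 0.957 with scores scaled within each library. Hypodermis markers were at 2.80, 1.84, 1.75 and 1.66 with a score of at least 3, without the large barcodes, with equal weights and with scores scaled within each library, and muscle with hypodermis at 1.76, 1.17 and 1.93 with a score of at least 3, with equal weights and with scores scaled within each library, and at 1.47 after thinning. Thinning put fork genes at 0.925, kinetochore genes at 0.935 and brakes at 0.919. Scores scaled within each library put fork genes at 0.946 and the replication lists together at 0.985.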
